A study of Oryctolagus cuniculus with 24 samples.

Results

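Enzymes that make prostaglandins and leukotrienes were followed in rabbit peripheral blood mononuclear cells (PBMCs) after stimulation in culture. Of the 8 enzyme genes considered (PLA2G4A, PTGS1, PTGS2, PTGES, ALOX5, ALOX5AP, ALOX15 and LTA4H), 6 had at least 1 array probe that carried their gene name, or a RefSeq accession or gene number that led to it. PTGES and ALOX15 had no probe under their name and were not analysed here. The 6 genes, out of 28889 measured, were read by 14 of 42089 probes, with 1 probe each for PLA2G4A, PTGS1 and ALOX5, 3 each for PTGS2 and LTA4H, and 5 for ALOX5AP. The rule that defines the set is what the gene products do, and it uses no measured value, although the set was drawn up with earlier results of these data known.

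PBMCs hold mostly lymphocytes, with monocytes. They were isolated on a ficoll gradient from adult female New Zealand White rabbits and kept in culture medium with serum. Cells of each of 4 rabbits (numbered 1, 2, 4 and 5) were mock-stimulated, stimulated with lipopolysaccharide (LPS) at 1 µg/mL, or stimulated with PMA at 10 ng/mL together with ionomycin at 1 µg/mL. They were harvested after 4 h (T4) or 24 h (T24), which gave 6 groups of 4 samples on 24 one-colour Agilent arrays, with every rabbit in every group. LPS is a component of the wall of Gram-negative bacteria. PMA activates protein kinase C and ionomycin is a calcium ionophore, and the pair stimulates lymphocytes without their receptors.

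Prostaglandins and leukotrienes are lipid mediators made from arachidonic acid, a fatty acid held in membrane phospholipids. PLA2G4A, the cytosolic phospholipase A2, frees arachidonic acid from the membrane. The cyclooxygenases PTGS1 (COX-1) and PTGS2 (COX-2) turn it into prostaglandin H2, from which other enzymes make the prostaglandins and thromboxane. PTGS1 is largely constitutive and abundant in platelets, whereas PTGS2 is known as the inducible form. In the leukotriene branch, ALOX5 (5-lipoxygenase) works with its helper protein ALOX5AP (FLAP) to make leukotriene A4, which LTA4H hydrolyses to leukotriene B4, an attractant of neutrophils. In blood, the lipoxygenase enzymes are known chiefly from myeloid cells.

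The probes are shown because each fold change below rests on them and because they show which probes are independent of each other. All were 60 bases long. Their letters come from the array files and are written 5′ to 3′ in lower case, by position of the probe in the transcript.
PLA2G4A, position 1282: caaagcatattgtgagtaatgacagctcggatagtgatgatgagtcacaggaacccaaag
PTGS1, position 1731: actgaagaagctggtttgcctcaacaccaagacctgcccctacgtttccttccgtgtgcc
PTGS2, position 1572: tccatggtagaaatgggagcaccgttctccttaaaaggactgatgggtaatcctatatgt
ALOX5, position 533: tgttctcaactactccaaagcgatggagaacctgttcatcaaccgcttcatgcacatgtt
ALOX5AP, position 393: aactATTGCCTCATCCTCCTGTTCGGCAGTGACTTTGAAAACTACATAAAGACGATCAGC
ALOX5AP, position 397: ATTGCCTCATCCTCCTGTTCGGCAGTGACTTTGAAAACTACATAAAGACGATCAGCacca
LTA4H, position 1776: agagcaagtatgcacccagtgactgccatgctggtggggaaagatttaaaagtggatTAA

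Capitals in the ALOX5AP probes mark the 56 bases that all 5 of its probes share. The 5 probes are therefore near copies of 1 measurement and not 5 independent ones. Capitals in the LTA4H probe mark the stop codon at its end, the only stop in that reading frame. The other PTGS2 probes lie further 3′, at positions 3141 and 3242 of the transcript. No run longer than 8 bases was shared between probes of different genes, and the GC content of the 14 probes was 35.0 to 55.0%.

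By the coordinates in the files, which name build oryCun2, the PTGS2 probes lie at chr16:83711629-83713359 on the plus strand and the PLA2G4A probe at chr16:83453820-83453879 on the minus strand. The gap between the PLA2G4A probe and the nearest PTGS2 probe is 257749 bases. The LTA4H probes lie at chr4:75201599-75203950 on the minus strand, and 1 of them spans more of the chromosome than its own length, so that it crosses an intron. The ALOX5 probe, at chr18:6731532-6737135 on the minus strand, covers 5604 bases of the chromosome and also crosses an intron. The files give no position for the probes of PTGS1 and ALOX5AP.

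Levels are the log2 of the median spot signal minus the median of all spots of the array that are not controls, averaged over the probes of a gene. A level of 0 is thus the median spot, and a difference of 1 is a doubling. Levels of different genes depend on their probes and were not compared. A gene was called different when its adjusted p from limma, over all 28889 genes, was under 0.05. Of the spots, 51.4 to 62.3% per array were well above background, and 1 spot was saturated over all arrays, which was not a spot of these genes. For a gene with several probes, detection means that most of them were well above background on the array. PTGS1, PTGS2, ALOX5AP and LTA4H were well above background on all 24 arrays. PLA2G4A was so on all but 2 arrays of PMA-Ionomycin at T24. ALOX5 was dim. It was well above background on all 4 arrays of mock and of LPS at T24, on 2 of mock at T4 and on none of the others.

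Marker genes of the expected cells were present. CD14 (monocytes), MS4A1 (B cells) and CD8A, CD8B and LCK (T cells) were well above background on all 24 arrays, whereas CD4 was so on none (on 5 arrays by 1 of its 2 probes). Of other cells, 3 of 7 platelet markers, 3 of 6 neutrophil markers and 3 of 7 eosinophil, basophil or mast cell markers were well above background on 20 or more arrays, and the platelet gene GP1BA on none. The neutrophil gene MMP8 was so on all 24 arrays by 1 of its 4 probes and by most of its probes on none. In such mixtures, fewer cells of a type and less RNA per cell cannot be told apart.

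The enzymes did not move as a block. After stimulation more of them were called against mock late after PMA-Ionomycin than early or after LPS, as was the case among all genes. At T24 after PMA-Ionomycin, 4 of 6 were called against mock, LTA4H higher and ALOX5, ALOX5AP and PLA2G4A lower, where 33.6% of all genes were called (22.1% higher and 11.5% lower). At T4 after PMA-Ionomycin, ALOX5 was lower and the other 5 were not called, where 22.8% of all genes were called and 9.33% were called lower. After LPS, none of the 6 was called at T4, where 1.02% of all genes were, and LTA4H alone was called at T24, lower, where 1.23% of all genes were called and 0.582% were called lower. At T4 after LPS, 1 of the 6, LTA4H, had an unadjusted p from limma under 0.05 (0.0394), beside 13.9% of all genes, and no alternative run gave a call. In mock-stimulated cells, 4 of 6 differed between T24 and T4 (PTGS2 and PLA2G4A lower, LTA4H and ALOX5 higher), where 12.5% of all genes did (7.41% higher and 5.13% lower). Comparisons with mock at the same time share the mock arrays. The median log2 fold change of the 6 genes against mock was -0.24 and 0.37 with LPS (T4, then T24) and -0.43 and -0.61 with PMA-Ionomycin, beside 0.06, -0.03, 0.05 and 0.03 over all genes.

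**Figure D1:**
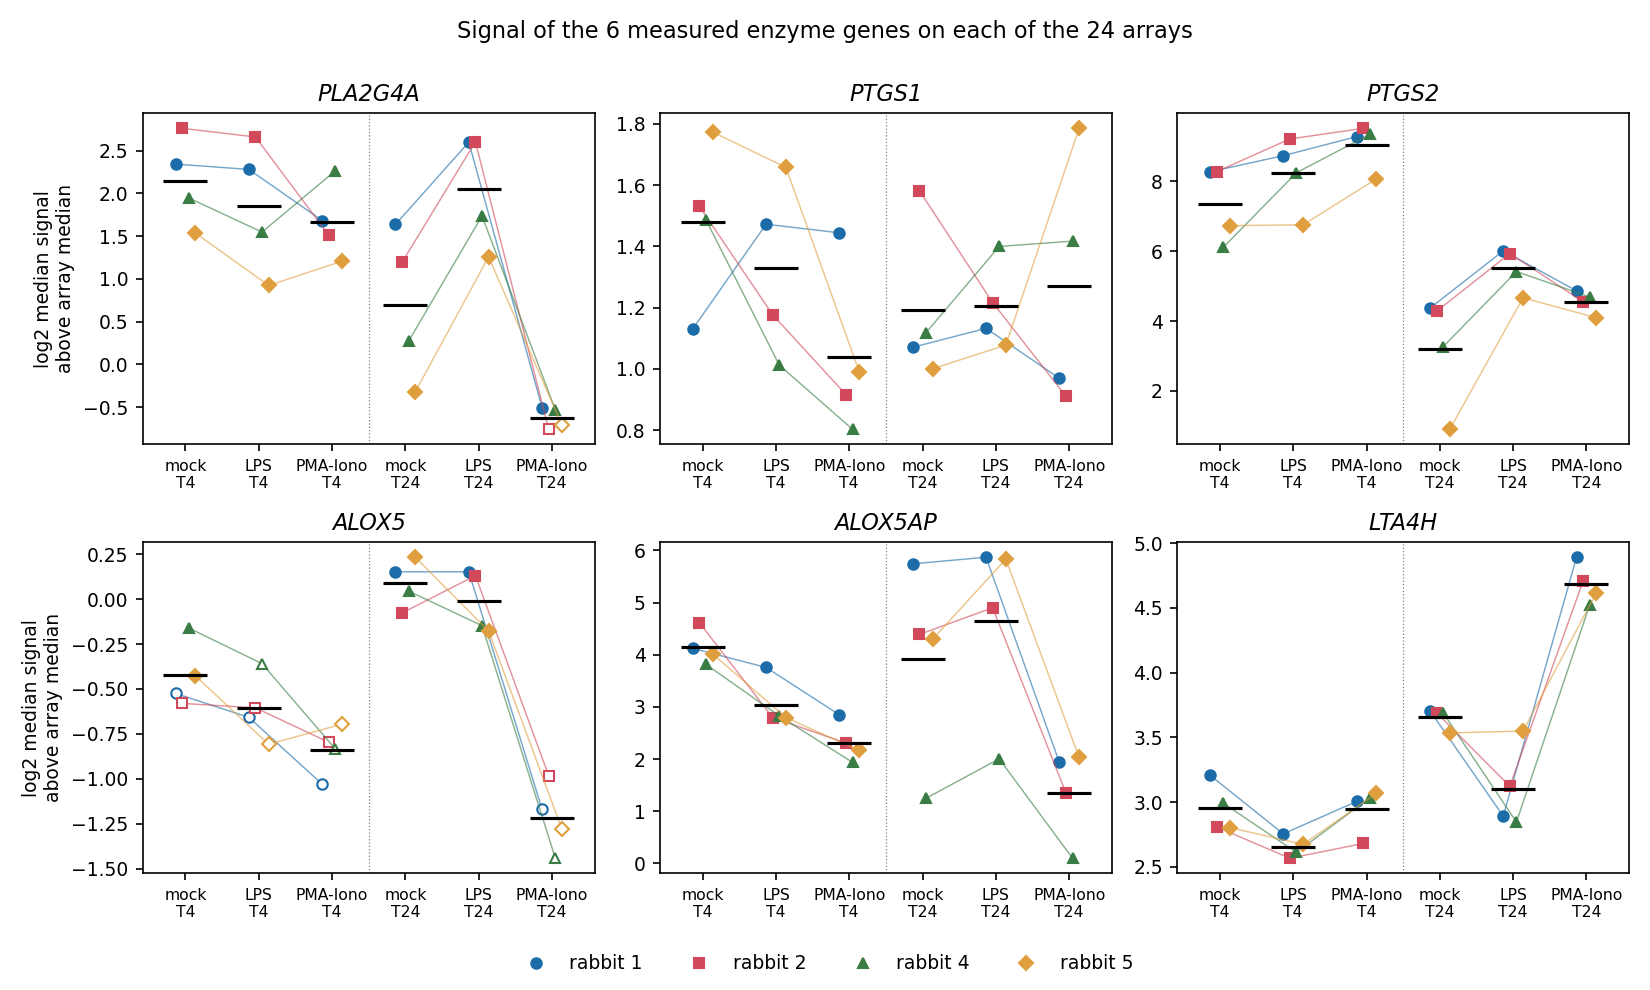
Level of each gene on each array (log2 median signal above the array median, a separate scale in each panel) in the 6 groups, PMA-Iono standing for PMA-Ionomycin. Symbols are rabbits, thin lines join the samples of a rabbit at the same time, open symbols were not well above background, and black bars are means. PLA2G4A at T24 runs from 2.05 on average after LPS to -0.63 after PMA-Ionomycin, and LTA4H after PMA-Ionomycin at T24 (4.52 to 4.89) lies above all other groups.

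PLA2G4A, which opens the pathway by releasing arachidonic acid, fell with time in mock culture and stood at opposite ends after the 2 stimulations at T24. In mock-stimulated cells the levels at T4 were 2.34, 2.76, 1.95 and 1.54 in rabbits 1, 2, 4 and 5, and those at T24 were 1.64, 1.19, 0.27 and -0.32. The level was lower at T24 in 4 of 4 rabbits, although the groups overlapped. The log2 fold change was -1.45 (SE 0.40, limma adjusted p = 0.0159), which is 2.74-fold lower. The call was lost without rabbit 2 (adjusted p = 0.0724 by limma), without rabbit 4 (0.12) and with only the arrays of the comparison (0.067), and the change was -2.07 with the processed signal.

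After LPS at T24 the levels of PLA2G4A were 2.60, 2.60, 1.74 and 1.26. Each rabbit was higher than its own mock sample, by 0.96 to 1.58 on the log2 scale, but the spread between rabbits was as wide and the groups overlapped. The mean difference was 1.35 (SE 0.40), or 2.56-fold, and was not called (limma adjusted p = 0.113). The rabbit number marks the same animal in every group, and with the rabbit as a block the adjusted p by limma was 0.00614, the lowest over the alternatives, of which the highest gave 0.57. The difference between the LPS effect at T24 and at T4 was 1.65 (SE 0.57, adjusted p = 0.13 by limma, and 0.0172 with the rabbit as a block). At T4, mock and LPS differed by -0.29 (adjusted p = 0.776 by limma).

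After PMA-Ionomycin at T24, PLA2G4A had levels of -0.51, -0.76, -0.53 and -0.71, all below the mock samples (groups did not overlap for 32.2% of all genes). The spread between rabbits was narrow there (SD 0.13, against 0.89 in mock), and rabbits 2 and 5 were no longer well above background. The log2 fold change against mock was -1.32 (SE 0.40, limma adjusted p = 0.0117), 2.5-fold lower. It was no longer called without rabbit 1 (-1.05, adjusted p = 0.114 by limma) or without rabbit 2 (-1.11, 0.0819), and its value ranged from -2.84 to -1.004 over the alternatives. Against LPS at T24 PLA2G4A was 6.39-fold lower (log2 fold change -2.68, SE 0.40, limma adjusted p = 7.26e-06), and every rabbit showed it (-3.36 to -1.97). Over the alternatives this value ranged from -4.68 with the processed signal to -2.18, and was called in all 15. At T4 the difference between PMA-Ionomycin and mock was -0.48 (adjusted p = 0.519 by limma), and that between PMA-Ionomycin and LPS was -0.19.

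PTGS1, the constitutive cyclooxygenase, was called in none of the 9 comparisons and interactions. Its mean level was 1.48 ± 0.27 in mock, 1.33 ± 0.29 after LPS and 1.04 ± 0.28 after PMA-Ionomycin at T4 (SD, n = 4 rabbits). At T24 it was 1.19 ± 0.26 in mock, 1.21 ± 0.14 after LPS and 1.27 ± 0.41 after PMA-Ionomycin. The order of the 6 groups, from mock at T4 down to PMA-Ionomycin at T4, had no neighbours that differed beyond the range of their samples. Its largest difference from mock was -0.44 at T4 after PMA-Ionomycin, with a 95% interval from -0.85 to -0.04 (adjusted p = 0.118 by limma), and 3 of 4 rabbits were lower. That value was called with quantile normalization (adjusted p = 0.0497 by limma), with the slide as a block (0.0151) and without rabbit 1 (0.0321), of alternatives that ranged from 0.0151 to 0.414. For LPS at T24 the 95% interval of the difference from mock was -0.39 to 0.42 on the log2 scale.

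Platelets are rich in PTGS1, and platelet markers moved in these cultures. In mock, 6 of 7 platelet markers were lower at T24 than at T4 (median log2 fold change of the 7, -1.79), and 6 of 7 were lower after PMA-Ionomycin than in mock at T4 (median -1.60). The log2 level of the summed platelet markers was 5.84 to 7.12 in mock at T4, 2.73 to 3.28 in mock at T24 and 3.50 to 4.71 after PMA-Ionomycin at T4. PTGS1 changed by -0.29 (adjusted p = 0.429 by limma) and by -0.44 in the same 2 comparisons. The called falls of PLA2G4A and PTGS2 with time in mock ran in the same direction as the platelet markers. After PMA-Ionomycin at T4, PTGS2 went the other way (1.71) and PLA2G4A changed by -0.48, neither called. At T24 after PMA-Ionomycin, PLA2G4A was called lower (-1.32), where 2 of 7 platelet markers were called higher and none lower. The part of platelets in the values of these 3 genes was not tested.

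PTGS2, the inducible cyclooxygenase, had its strongest change between the times of culture and not between stimulations. In mock at T4 the levels were 8.28, 8.28, 6.11 and 6.73 in rabbits 1, 2, 4 and 5. In mock at T24 they were 4.37, 4.28, 3.26 and 0.90. All samples at T24 were below all samples at T4, and rabbit 5 was lowest at T24. The log2 fold change was -4.15 (SE 0.63, limma adjusted p = 5.68e-05), a 17.7-fold fall, seen in 4 of 4 rabbits (-5.84 to -2.85). It stayed called in the 15 alternatives run, with values of -4.61 to -3.58. The groups did not overlap, as was the case for 14.2% of all genes in this comparison.

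At T4, PTGS2 was already high without stimulation. After LPS the levels were 8.74, 9.22, 8.25 and 6.76, and after PMA-Ionomycin they were 9.28, 9.52, 9.35 and 8.07. Every rabbit was higher after PMA-Ionomycin than in mock, by 1.01 to 3.24, but the groups overlapped, since rabbit 5 after PMA-Ionomycin (8.07) was below rabbits 1 and 2 in mock (8.28 each). The log2 fold change was 1.71 for PMA-Ionomycin (SE 0.63, limma adjusted p = 0.055) and 0.89 for LPS (SE 0.63, adjusted p = 0.567), and neither was called. With the rabbit as a block PMA-Ionomycin was called (adjusted p = 0.00122 by limma), as it was without rabbit 5 (0.0046), with only the arrays of the comparison (0.0345) and with dim probes left out (0.0372). The other alternatives gave up to 0.424.

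At T24, PTGS2 was higher after LPS in every rabbit, with levels of 6.01, 5.93, 5.42 and 4.67. No LPS sample was as low as the highest mock sample, and 4.34% of all genes had groups that did not overlap, in either direction, in this comparison. The log2 fold change was 2.31 (95% interval 1.00 to 3.61), or 4.94-fold, and the limma adjusted p of 0.0791 missed the threshold. With the rabbit as a block it was called (adjusted p = 0.000901 by limma), and without rabbit 5, whose mock sample at T24 was the lowest, the log2 fold change was 1.82 (adjusted p = 0.0353). The alternatives ranged up to 0.449.

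After PMA-Ionomycin at T24 the PTGS2 levels were 4.87, 4.55, 4.69 and 4.09. They overlapped with mock, and the log2 fold change of 1.35 (SE 0.63) was called only with the rabbit as a block (adjusted p = 0.00597 by limma, against 0.114 without it, with alternatives up to 0.314). Rabbits 1 and 2 rose little, by 0.50 and 0.27, and rabbit 5 by 3.20. Against LPS at the same time PTGS2 was lower in 4 of 4 rabbits after PMA-Ionomycin, by 0.57 to 1.38 in size (log2 fold change -0.96, adjusted p = 0.289 by limma). That difference was called when the rabbit was a block (0.0462) or when the fit held no other arrays (0.0161), of alternatives up to 0.523. In the order of means, PMA-Ionomycin, LPS and mock at T4 came first, then LPS, PMA-Ionomycin and mock at T24. The only neighbours whose samples did not overlap were mock at T4 and LPS at T24.

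The 3 probes of PTGS2 gave the same direction in the 4 comparisons with mock and in the change with time, but not the same size. For LPS at T24 their log2 fold changes were within 2.23 to 2.42. For PMA-Ionomycin at T24, the probe at position 1572 gave 0.68, and those at positions 3141 and 3242 gave 1.70 and 1.67. Against LPS at T24 the same probe gave -1.56 where the others gave -0.72 and -0.60. Taken alone, over all 42089 probes, the probe at 1572 was called in LPS over mock at T24 (adjusted p = 0.0257 by limma), in PMA-Ionomycin over mock at T4 (0.00514) and between the stimulations at T24 (0.0205), and the others were not. The probe at 1572 was well above background on 3 of 4 mock arrays at T24. Its interaction of PMA-Ionomycin with time was -1.35, where the others gave 0.10 and 0.17, none called. Which of them follows the transcript better was not tested.

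**Figure D2:**
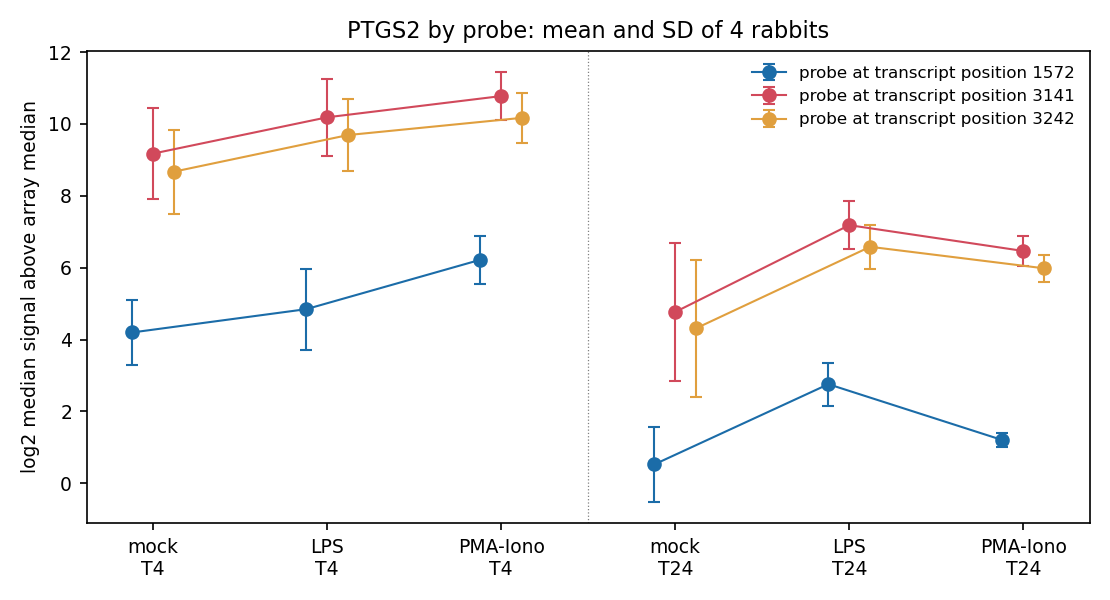
Mean level of each PTGS2 probe (log2 median signal above the array median) in the 6 groups, with bars for the SD of 4 rabbits; levels of different probes are not comparable. At T24, the probe at position 1572 goes from 2.76 after LPS to 1.20 after PMA-Ionomycin, and that at 3141 from 7.18 to 6.46.

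ALOX5, the 5-lipoxygenase that starts leukotriene synthesis, was measured near background and fell after PMA-Ionomycin. At T24 the levels in rabbits 1, 2, 4 and 5 were 0.15, -0.08, 0.04 and 0.23 in mock and 0.15, 0.13, -0.15 and -0.18 after LPS. After PMA-Ionomycin they were -1.17, -0.98, -1.44 and -1.28. All 4 PMA-Ionomycin samples were below all mock samples and all LPS samples. For all genes, PMA-Ionomycin did not overlap with mock in 32.2% and with LPS in 36.2%. None of the 4 samples was well above background, so that the fall is given as a bound. ALOX5 was at least 2.42-fold lower than in mock (fitted log2 fold change -1.31, SE 0.13, limma adjusted p = 1.86e-08) and at least 2.26-fold lower than after LPS (fitted -1.21, adjusted p = 5.42e-08). Its fitted change was called in the 15 alternatives run in both comparisons. It ranged from -4.12 with the processed signal to -0.84 with normexp against mock, and from -3.90 to -0.76 with the same settings against LPS. The normexp values are smaller falls than the bounds. The bound sets each dim array to its ALOX5 signal or, where higher, to the dimmest probe that still counted as well above background.

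At T4, ALOX5 had levels of -0.52, -0.58, -0.16 and -0.43 in mock, with rabbits 4 and 5 well above background, and of -1.03, -0.80, -0.83 and -0.70 after PMA-Ionomycin. The groups did not overlap, as was the case for 21.4% of all genes. ALOX5 was at least 1.31-fold lower (fitted log2 fold change -0.42, SE 0.13, limma adjusted p = 0.0202). The call was lost without rabbit 1 (adjusted p = 0.123 by limma), without rabbit 4 (0.131) and with only the arrays of the comparison (0.0551). The fitted change ranged from -2.20 with the processed signal to -0.33 with normexp, the latter a smaller fall than the bound. The fitted interaction of PMA-Ionomycin with time was -0.89 (SE 0.18, adjusted p = 0.000719 by limma) and was called in the 15 alternatives run, with values of -1.92 to -0.51. ALOX5 was well above background on no array of either PMA-Ionomycin group, so that this value is a difference between fitted changes. After LPS at T4, ALOX5 was well above background on no array and was not called against mock (adjusted p = 0.562 by limma). At T24 LPS and mock differed by -0.10 (adjusted p = 0.922 by limma). In mock culture it was higher at T24 in 4 of 4 rabbits, by 0.51 (SE 0.13, limma adjusted p = 0.00837), a call lost without rabbit 1 (0.111) and without rabbit 5 (0.0586), and by 1.29 with the processed signal. Markers of monocytes (4 of 8 higher, none lower, median 0.83) and of neutrophils (4 of 6 higher, none lower, median 0.86) moved the same way in that comparison, and their part in it was not tested.

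ALOX5AP, the helper protein of ALOX5, also had its lowest levels after PMA-Ionomycin. At T24, mock levels were 5.74, 4.39, 1.25 and 4.30 in rabbits 1, 2, 4 and 5. Those after LPS were 5.87, 4.90, 2.0035 and 5.83, and those after PMA-Ionomycin 1.94, 1.35, 0.10 and 2.03. Rabbit 4 was far below the others in all 3 groups, which widened the spread (SD 1.90 in mock) and made the groups overlap. PMA-Ionomycin lowered ALOX5AP 5.91-fold against mock (log2 fold change -2.56, SE 0.74, limma adjusted p = 0.00874), in 4 of 4 rabbits (-3.80 to -1.15). The call was lost without rabbit 1 (-2.15, adjusted p = 0.0663 by limma) and without rabbit 2 (-2.41, 0.0868). Against LPS it was 9.83-fold lower (-3.30, SE 0.74, limma adjusted p = 0.000926, and -3.93 with the processed signal). After LPS it differed from mock by 0.73 (SE 0.74, adjusted p = 0.864), higher in 4 of 4 rabbits.

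At T4 the rabbits were closer together. Mock levels of ALOX5AP were 4.12, 4.62, 3.81 and 4.02, LPS levels 3.76, 2.79, 2.83 and 2.80, and PMA-Ionomycin levels 2.85, 2.31, 1.93 and 2.16. All PMA-Ionomycin samples and all LPS samples were below all mock samples. The groups did not overlap, in either direction, for 21.4% and 7.34% of all genes in these comparisons. Neither difference was called. It was -1.83 for PMA-Ionomycin (SE 0.74, limma adjusted p = 0.0859) and -1.10 for LPS (SE 0.74, adjusted p = 0.548), with an SE that holds the wide spread at T24. For PMA-Ionomycin the adjusted p by limma was 0.000238 with only the arrays of T4 mock and PMA-Ionomycin, 0.0106 with the rabbit as a block and 0.00276 without rabbit 4, with alternatives up to 0.326. For LPS the alternatives gave 0.227 to 0.904. Between T4 and T24 in mock, the change of ALOX5AP went from 1.62 in rabbit 1 to -2.57 in rabbit 4, and its mean was -0.22.

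At T24 after PMA-Ionomycin, monocyte markers moved with the falls of PLA2G4A, ALOX5 and ALOX5AP. Of the 8 found, 6 were called lower than in mock and none higher, with a median log2 fold change of -2.60. The log2 level of the summed markers was 8.47 to 9.68 in mock, 8.30 to 9.48 after LPS and 6.27 to 7.07 after PMA-Ionomycin at T24. At T4 it was 7.43 to 8.41 in mock, 6.57 to 6.98 after LPS and 6.15 to 7.45 after PMA-Ionomycin, and 2 of 8 markers were called lower in each stimulation. The samples after LPS at T4 were thus below all mock samples in this sum, as they were in ALOX5AP. Of neutrophil markers, 3 of 6 were called lower after PMA-Ionomycin at T24 (median -0.83). So were 3 of 7 eosinophil, basophil or mast cell markers (1 higher, median -0.47), 2 of 5 B cell markers (1 higher, median -0.29) and 1 of 7 T cell markers (1 higher, median 0.11). Of platelet markers 2 of 7, and the 1 NK cell marker, were called higher and none lower (medians 0.06 and 0.96). With time in mock, 4 of 8 monocyte markers were called higher and none lower (median 0.83). There ALOX5 was called higher (0.51) and PLA2G4A lower (-1.45), and ALOX5AP was not called (-0.22). The part of the number of monocytes or other cells in the values of these 3 genes was not tested.

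LTA4H, which makes leukotriene B4, changed in the direction opposite to ALOX5 and ALOX5AP after PMA-Ionomycin at T24. At this time its levels in rabbits 1, 2, 4 and 5 were 3.71, 3.69, 3.69 and 3.53 in mock and 4.89, 4.71, 4.52 and 4.62 after PMA-Ionomycin. Those after LPS were 2.89, 3.12, 2.85 and 3.55. All PMA-Ionomycin samples were above all mock and LPS samples, where PMA-Ionomycin and mock did not overlap for 32.2% of all genes. LTA4H rose 2.04-fold against mock (log2 fold change 1.03, SE 0.14, limma adjusted p = 1.82e-06) and 3-fold against LPS (1.58, SE 0.14, adjusted p = 2.19e-09). Both were called in the 15 alternatives run, with values of 0.52 to 1.10 and of 1.04 to 1.75. Its 3 probes gave 0.94 to 1.08 against mock.

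At T4 the difference of LTA4H between PMA-Ionomycin and mock was within the spread (log2 fold change -0.01, 95% interval -0.29 to 0.28), and the effect of PMA-Ionomycin was larger at T24 by 1.04 (SE 0.19, adjusted p = 0.000301 by limma). After LPS, LTA4H was lower in 4 of 4 rabbits at T4 by 0.30 (adjusted p = 0.325 by limma) and in 3 of 4 at T24 by 0.55 (SE 0.14, adjusted p = 0.0477). The latter call was marginal. It was lost without rabbit 1 (adjusted p = 0.317 by limma), without rabbit 2 (0.313), without rabbit 4 (0.541) and in 3 other alternatives, and the lowest value over the alternatives was 0.00613. With time in mock, LTA4H rose by 0.70 (SE 0.14, limma adjusted p = 0.000911) in 4 of 4 rabbits, and the 2 groups did not overlap (14.2% of all genes). The monocyte and neutrophil markers that rose beside ALOX5 moved the same way in that comparison. Beside the fall of LTA4H after LPS at T24, 1 of 8 monocyte markers and 2 of 6 neutrophil markers were called lower and none higher (medians -0.12 and -0.19). The log2 level of the summed neutrophil markers was not lower, at 12.17 to 12.55 after LPS and 8.89 to 12.30 in mock. Beside the rise of LTA4H after PMA-Ionomycin at T24, 6 of 8 monocyte and 3 of 6 neutrophil markers were called lower and none higher (medians -2.60 and -0.83). In that comparison 2 of 7 platelet markers and the 1 NK cell marker were called higher and none lower (medians 0.06 and 0.96). The part of these cells in the LTA4H values was not tested. In the order of means, PMA-Ionomycin at T24 was separate from mock at T24, and the ranges of all other neighbours overlapped.

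**Figure D3:**
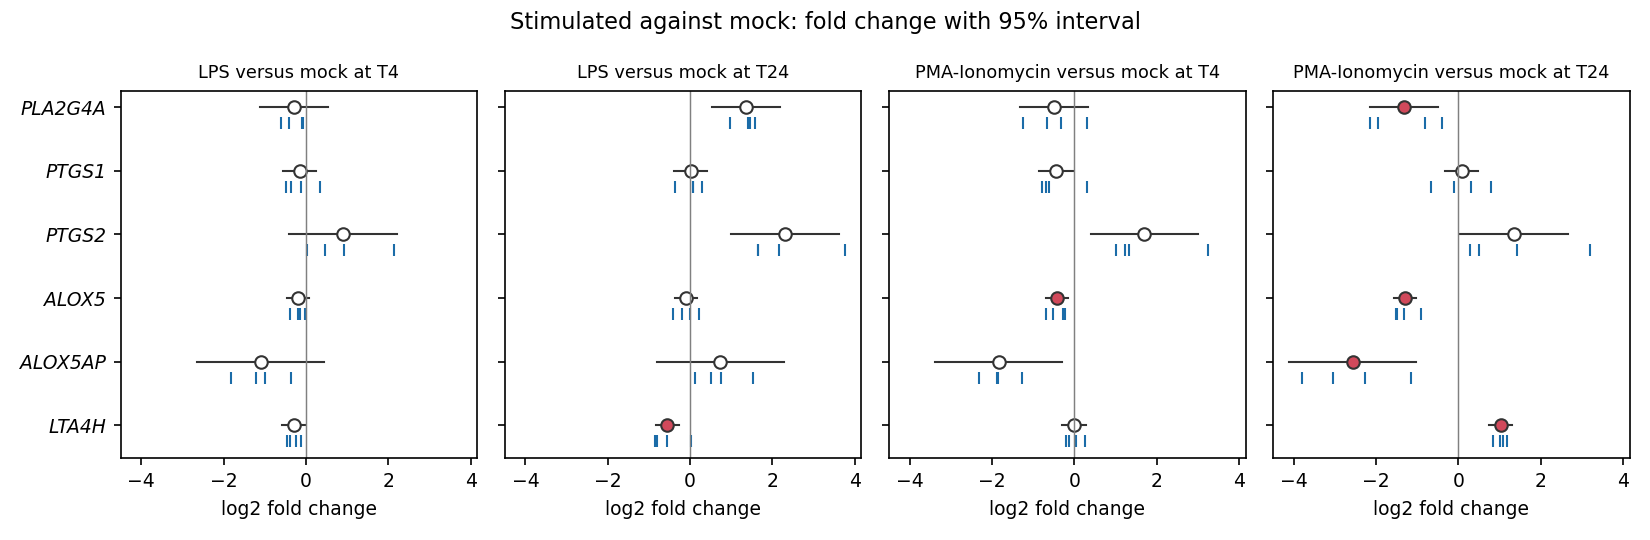
Log2 fold change of stimulated over mock samples with the 95% interval of the fit to 24 arrays, in the 4 comparisons with mock. Filled circles passed an adjusted p of 0.05, and blue ticks are the differences within the 4 rabbits. At T24 after PMA-Ionomycin the called genes are LTA4H at 1.03, ALOX5 at -1.31, PLA2G4A at -1.32 and ALOX5AP at -2.56, and the ticks of PTGS2 after LPS at T24 lie between 1.64 and 3.77.

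Between the 2 stimulations at T4, none of the 6 was called, where 26.7% of all genes were. With an unadjusted p under 0.05 there was 1, LTA4H (0.043), beside 34.7% of all genes. LTA4H was higher after PMA-Ionomycin by 0.30, but the sign turned with quantile normalization (-0.013), the processed signal (-0.022) and normexp (-0.012). PTGS1 was lower after PMA-Ionomycin by 0.29 and not called (adjusted p = 0.326 by limma), but was called with quantile normalization (0.0422), the processed signal (0.0464) and normexp (0.0448). ALOX5 was well above background on no array of either group and was not called (adjusted p = 0.219 by limma), but was called lower after PMA-Ionomycin with the processed signal (fitted log2 fold change -1.55, adjusted p = 0.000159) and with the slide as a block (-0.28, 0.0421). At T24, 4 of 6 were called, LTA4H higher and PLA2G4A, ALOX5 and ALOX5AP lower, where 36.1% of all genes were (23.6% higher and 12.5% lower). No interaction of LPS with time was called (1.95% of all genes), and PLA2G4A alone had an unadjusted p under 0.05 there (0.0079), beside 16.3% of all genes. For PMA-Ionomycin, 2 of 6 interactions were called, LTA4H and ALOX5, 1 positive and 1 negative, where 22.5% of all genes were (14.4% positive and 8.16% negative).

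The arrays lay on 3 slides, each with all 6 groups but with different rabbits in a group. Within slides, LTA4H after PMA-Ionomycin at T24 was higher by 0.88 to 1.28, and ALOX5 was lower by values of -1.31 to -1.13. ALOX5AP (-4.39 to -0.83) and PLA2G4A (-2.40 to -0.48) were lower on each slide, with the smallest fall of both on slide 1. On that slide the mock samples at T24 were of rabbits 4 and 5, and the PMA-Ionomycin sample was of rabbit 1. PTGS2 in mock fell by values of -4.65 to -2.82 between T4 and T24. PTGS2 after LPS at T24 was higher by 3.93, 0.93 and 1.14 on slides 1, 2 and 3, and LTA4H lower by values of -0.85 to -0.37.

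Around the 6 enzymes, a list of 58 further genes of the pathway was read, of which 32 had probes. They were 9 phospholipases and their relatives, 3 synthases that act after the cyclooxygenases, 3 leukotriene enzymes, 2 other lipoxygenases, 6 genes of breakdown and transport, 6 prostanoid receptors, 2 leukotriene and lipoxin receptors and ANXA1. After LPS none of the 32 was called by limma at T4 or at T24, where 1.02% and 1.23% of all genes were. With an unadjusted p under 0.05 there were 6 and 5, beside 13.9% and 10.8% of all genes. With rabbit 1 left out, ABCC1 was called at T4 (log2 fold change -0.89, adjusted p = 0.0394 by limma, against 0.103 with all rabbits). With the rabbit as a block, PTGIR, the prostacyclin receptor, was called at T24 (1.04, adjusted p = 0.00166 by limma, against 0.0962 without it), as it was with rabbit 5 left out (0.0267). The block also called its interaction of LPS with time (1.02, adjusted p = 0.0231 by limma, against 0.216). After PMA-Ionomycin, 9 were called at T4 (6 higher and 3 lower) and 11 at T24 (3 higher and 8 lower). The counts of 9 and 11 stand beside the 22.8% and 33.6% called among all genes. At T24 the count was 7 with rabbit 1 left out (7960 of all genes called). It was higher with the rabbit as a block (10539 of all genes called), as given below. With PMA-Ionomycin, the list's median log2 fold change was 0.05 at T4 and -0.20 at T24, beside 0.05 and 0.03 over all genes.

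At T4 after PMA-Ionomycin, the largest rise in the list was that of AKR1B1, an aldose reductase that can also make prostaglandin F2α, with levels of 5.22 to 6.24 in mock and 6.73 to 8.64 after PMA-Ionomycin (log2 fold change 2.23, SE 0.38, limma adjusted p = 8.09e-05). ANXA1, annexin A1, known as an inhibitor of phospholipase A2, rose by 1.43 (SE 0.35, adjusted p = 0.00329 by limma). PTGIR rose by 1.23, the phospholipase PLA2G4C by 0.84 and the cysteinyl leukotriene receptor CYSLTR2 by 0.61. Of these, PLA2G4C was called in 10 of 15 alternatives and PTGIR and CYSLTR2 in all. In the same comparison 2 of 7 eosinophil, basophil or mast cell markers were called higher and 1 lower (median -0.14). Their summed log2 level was 4.07 to 4.86 in mock and 6.39 to 7.83 after PMA-Ionomycin. The part of these cells in the rises was not tested. PLAAT3, a phospholipase of adipocytes and other cells, fell by 1.90 (SE 0.20, adjusted p = 2.04e-07 by limma), from 6.19 to 6.85 in mock to 3.97 to 4.99, and ABCC4, a transporter that exports prostaglandins, fell by 1.88. At T24 PLAAT3 differed from mock by -0.17 (-0.78 and called with quantile normalization, adjusted p = 0.000434 by limma, and -0.77 with normexp, 0.000438), and the interaction of 1.73 was called (adjusted p = 8.13e-05 by limma).

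At T24 after PMA-Ionomycin, TBXAS1, the thromboxane synthase, was well above background on no array, at -1.36 to -0.73, against 1.44 to 2.72 in mock and 1.82 to 2.45 after LPS. It was at least 8.24-fold lower than in mock (fitted log2 fold change -3.05, SE 0.23, limma adjusted p = 3.09e-10). The fitted change was called in the 15 alternatives run, but ranged from -6.35 with the processed signal to -2.43 with normexp, a 5.37-fold fall that is smaller than the bound. It was also lower at T4 by 0.67 (adjusted p = 0.0396 by limma), a call lost without rabbit 2 (0.142) and without rabbit 5 (0.218). In mock it rose with time by 1.14 (adjusted p = 0.00132 by limma, and 0.0531 without rabbit 1). Of 8 monocyte markers, 4 were called higher and none lower with time in mock (median 0.83), and their part in that rise was not tested. FPR2, a receptor for lipoxin A4 and formyl peptides, was 9.73-fold lower than in mock at T24 (adjusted p = 0.00248 by limma), with rabbit differences from -5.20 to 0.51 and groups that overlapped. Without rabbit 5, which gave 0.51, it was 23.4-fold lower, and without rabbit 2 it was 6.25-fold lower and not called (adjusted p = 0.0579 by limma). With the processed signal it was 18.3-fold lower. PTGER4, a prostaglandin E2 receptor, fell 4.63-fold (adjusted p = 0.000151 by limma), and 7.49-fold with the processed signal. The transporters ABCC1, which exports leukotriene C4, and ABCC4 fell 4.01-fold and 2.85-fold, and 6.98-fold and 4.29-fold with the processed signal. Monocyte markers were lower than in mock as well (6 of 8 called, median -2.60), and their part in these falls was not tested. With the rabbit as a block, AKR1B1 was also called higher at T24 (0.71, adjusted p = 0.0427 by limma). ANXA1 (-0.53, 0.00459), CYSLTR2 (-0.28, 0.048) and HPGDS (-0.60, 0.0486) were then called lower. HPGDS was well above background on 1 mock and 0 PMA-Ionomycin arrays.

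The 3 list genes called higher at T24 were PLAA, an activator of phospholipase A2, by 1.12 (SE 0.15, adjusted p = 1.96e-06 by limma), PTGR2, which breaks down prostaglandin metabolites, by 0.51 (called in 12 of 15 alternatives), and the prostaglandin E2 receptor PTGER2 by 0.37. The PTGER2 probes disagreed. Of its 6 probes, 1 was well above background on all 4 arrays of both groups and gave -0.16 (adjusted p = 0.296 by limma over all probes), whereas the other 5 were so on 0 mock and 0 to 3 PMA-Ionomycin arrays and gave 0.36 to 0.63. The rise of 0.37 thus comes from averaging in the dim probes, and the change ranged from -0.16 (with dim probes left out or single probes) to 1.32 over the alternatives. In mock, 4 list genes were higher at T24 than at T4 (TBXAS1, ABCC1, PTGR2 and PTGDR) and none lower, which is 4 of 32 where 12.5% of all genes were called and 7.41% were called higher. The count was 2 with rabbit 1 left out and with single probes, where 2330 and 3648 of all genes were called. With the rabbit as a block, ANXA1 was also called, lower (log2 fold change -1.01, adjusted p = 2.13e-05 by limma, against 0.0622). It was called too with quantile normalization, normexp, dim probes left out and rabbit 5 left out. The block also called the phospholipase PLA2G15 higher (0.36, adjusted p = 0.0491 by limma, against 0.0704). PTGDR, a prostaglandin D2 receptor, was well above background on 0 mock arrays at T4 and 3 at T24, and was called in 9 of 15 alternatives.

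**Figure D4:**
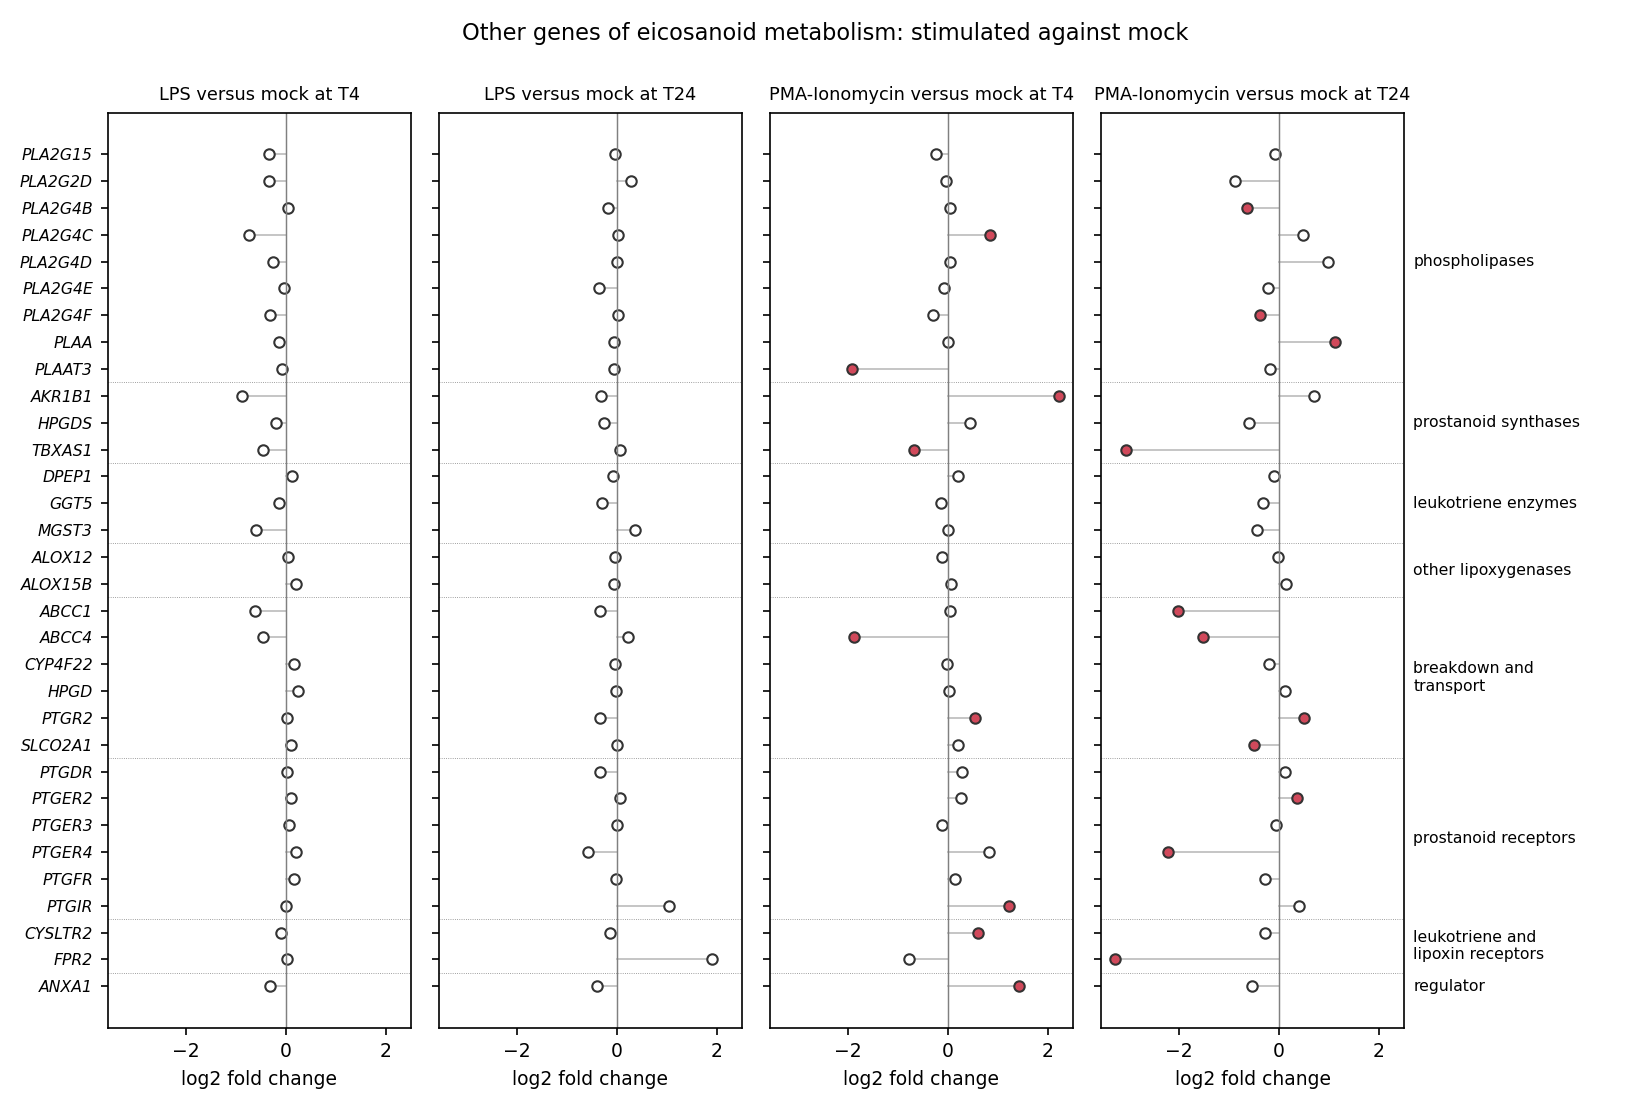
Log2 fold change of stimulated over mock samples for the 32 further genes of the pathway, by role, in the 4 comparisons with mock. Filled circles passed an adjusted p of 0.05. After LPS no circle is filled, and after PMA-Ionomycin the fills lie on both sides at T4 and mostly on the lower side at T24 (3 higher and 8 lower).

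For each enzyme, the genes with a symbol whose levels ran most alike over the 24 arrays were sought among 6280 genes that were measured on all arrays and well above background on all 4 arrays of at least 1 group. The correlations share the differences between groups and are descriptions. PTGS2 ran with FERMT2 (Pearson r = 0.95), COQ10B (0.94) and TNFAIP6 (0.93). PLA2G4A ran with THBS1 (0.95), UBE2H (0.94) and CCDC190 (0.94). ALOX5 ran with LIPA (0.93), CTDSP1 (0.92) and TBXAS1 (0.91), the last being the thromboxane synthase described above. LTA4H ran with POGLUT2 (0.98), ATP5PD (0.96) and NDUFV2 (0.96), of which ATP5PD and NDUFV2 encode parts of the mitochondrial ATP synthase and complex I. For ALOX5AP (FAM161B, PPFIBP2 and TXNIP, 0.81 to 0.83) and PTGS1 (KAL1 and AQP7, both 0.82), the likeness was lower.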

How the data were processed

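RNA of 24 PBMC cultures (6 groups of 4 rabbits) was hybridised in Cy3 to one-colour Agilent arrays. The authors extracted spot intensity with Feature Extraction 10.7.3.1 and deposited it uncorrected (median signal and local background) and as a processed signal, background-subtracted and detrended within the array. They also deposited a log2 table. It equals the log2 median signal minus a constant for each array, to within 5e-09.

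From the deposited median intensity, log2 values were computed, the median of the 61657 spots that are not controls was subtracted on each array, outlier spots were left out, and spots were averaged per probe and probes per gene. Probes were named by the files' gene names, accessions and gene numbers through a RefSeq table of assembly mOryCun1.1, used for names only. Of 28889 genes, 9510 had a symbol.

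A mean for each group was fitted over all arrays with limma 3.58.1 in R 4.3.3, with Benjamini-Hochberg adjustment over all genes and a threshold of 0.05. The script was tested on simulated data. Groups came from the labels. The rabbits are the same animals in each group. Deviations from the group means correlated with a median r of 0.23 over 60 pairs of samples of the same rabbit and of -0.07 over 180 pairs of different rabbits. Values from a model that adds the rabbit as a block are given where the call of an enzyme changes, and for the pathway list only in part.

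A gene on no array of a group well above background has a bound there, "at least N-fold". Alternatives were other normalizations and signals, dim probes left out, outlier spots kept, only the arrays compared, rabbit or slide as a block, another variance prior, single probes, and each rabbit left out. The enzymes, the pathway list and the marker lists were chosen with earlier results of these data known. Named were all enzymes, at most 5 rises and 5 falls of the pathway list past the threshold in each comparison with mock, and the 3 genes most alike to each enzyme, of which 1 is not reported here. PTGR2 and PTGDR with time in mock, ABCC1 and PTGIR after LPS, and the interaction of PLAAT3, were named outside that rule after their values were seen. So were ANXA1 and PLA2G15 with time in mock, and AKR1B1, ANXA1, CYSLTR2 and HPGDS at T24 after PMA-Ionomycin. Depth has no meaning for arrays, and the number of rabbits limits the precision.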

Additional observations from a re-analysis of the deposited data

Results flagged for a closer look

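Within groups of 4, 1 rabbit stood apart in 4 of 36 combinations of gene and group, judged by its gap to the nearest other rabbit as a share of the whole range, above Dixon's 95% critical value. Chance gives about 1 in 20 groups. PTGS2 after PMA-Ionomycin at T4 was 8.07 in rabbit 5 against 9.28 to 9.52 (ratio 0.836). ALOX5AP after LPS at T4 was 3.76 in rabbit 1 against 2.79 to 2.83 (ratio 0.967). LTA4H after PMA-Ionomycin at T4 was 2.68 in rabbit 2 against 3.005 to 3.07 (ratio 0.839), and in mock at T24 it was 3.53 in rabbit 5 against 3.69 to 3.71 (ratio 0.905).

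The effect of PMA-Ionomycin differed between T24 and T4 for LTA4H by 1.04 on the log2 scale, past the threshold of the interaction test in limma. For ALOX5 the fitted interaction was -0.89 and also past the threshold, with values of -1.92 to -0.51 over the alternatives. ALOX5 was well above background on 0 arrays of both PMA-Ionomycin groups, so that the size of this difference is not measured.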

How the results depend on the processing

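Of the enzymes' log2 fold changes over 9 comparisons and 15 alternatives, 739 kept direction and side of the threshold, 18 lost a call, 22 gained one and 31 changed sign, none of the last called in either fit. The cause of the changes was not tested. With the rabbit as a block, pairing the samples, 3 enzymes were called for LPS at T24 (1 without it), 3 for PMA-Ionomycin at T4 (1) and 1 in the LPS interaction (0). The block added PTGS2 for PMA-Ionomycin at T24 against mock and against LPS, which gave 5 enzymes in each (4). Of all 28889 genes, the block called 750 for LPS at T24 (354 without it), 7493 for PMA-Ionomycin at T4 (6576) and 1661 in the LPS interaction (562). For PMA-Ionomycin at T24 it called 10539 against mock (9712) and 11312 against LPS (10433). For LPS at T24, none was called with the processed signal, with only the arrays compared or with a trended robust prior, and 0 to 2 with a rabbit left out. Of all genes, 296, 47 and 327 were called in these settings, in that order, and 86 to 614 with a rabbit left out. For PMA-Ionomycin at T4, 2 were called with quantile normalization, dim probes left out, only the arrays compared or the slide as a block, and 1 to 2 with a rabbit left out. Of all genes, 7396, 6857 (of 17737), 5732 and 6730 were called, in that order, and 4750 to 6267 with a rabbit left out. For PMA-Ionomycin at T24, 2 to 4 were called with a rabbit left out, beside 7960 to 9077 of all genes. Between the stimulations at T4, 1 was called with quantile normalization, normexp or the slide as a block and 2 with the processed signal. Of all genes, 8885, 8729, 8019 and 10107 were called, in that order, against 7721 in the main fit.

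Signs changed as follows, on the log2 scale. PTGS1 after LPS at T4 was 0.00089 with quantile normalization and 0.0014 with normexp. After LPS at T24 it was -0.0015 with normexp, and -0.075 to 0.14 with a rabbit left out. After PMA-Ionomycin at T24 it was -0.034 with quantile normalization, -0.19 with the processed signal, -0.028 with normexp, -0.068 with the deposited table, -0.023 with the slide as a block and -0.16 to 0.33 with a rabbit left out. Against LPS at T24 it was, in the same order, -0.039, -0.25, -0.026, -0.098, -0.052 and -0.15 to 0.19. In the LPS interaction it was -0.0029 with normexp and -0.033 to 0.31 with a rabbit left out. LTA4H after PMA-Ionomycin at T4 was 0.041 with the slide as a block and -0.096 to 0.0598 with a rabbit left out. Against LPS at T4 it was -0.013 with quantile normalization, -0.022 with the processed signal and -0.012 with normexp. PTGS2 in the PMA-Ionomycin interaction was 0.098 with single probes and -1.10 to 0.13 with a rabbit left out. With a rabbit left out, ALOX5 after LPS at T24 was -0.20 to 0.0051, ALOX5AP with time in mock -0.84 to 0.56 and PLA2G4A between the stimulations at T4 -0.49 to 0.13.

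The processed signal shifted the median log2 fold change of all genes by up to -0.37, from -0.04 to -0.41 (PMA-Ionomycin against LPS at T4). ALOX5, and PLA2G4A after PMA-Ionomycin at T24, lie near background, which limits the precision of their falls, and these falls were larger with the processed signal.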
